A study of Mus musculus with 227 samples.

Results

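The 31 genes described here encode ionotropic and metabotropic glutamate receptors and the auxiliary subunits that travel with them. They were taken from the deposited count table by gene symbol, 1 row each, out of 31689 genes. They comprise 4 AMPA receptor subunits, 6 NMDA receptor subunits, 5 kainate receptor subunits, 6 metabotropic receptors, the delta receptor Grid1, 7 auxiliary subunits of AMPA receptors and 2 of kainate receptors. All 31 passed the filter on low counts in every comparison below, and the lowest count of any of them in any library was 65 reads.

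The RNA came from primary cerebrocortical cultures of F1 mouse embryos from an FVB/N female and a C3B6F1 male, prepared at embryonic day 16.5. After 21 days in vitro each culture received 1 of 218 brain-penetrant drugs or vehicle (0.2% DMSO) for 8 h. There was a single library per drug, and 9 of vehicle. Drug concentrations are not given in the sources used here, which also do not say whether libraries came from separate cultures, so p-values measure the spread between libraries, which may be technical. The cultures hold neurons and glia together, and in such bulk RNA fewer cells of a type and less RNA per cell cannot be told apart.

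AMPA receptors carry most fast excitatory current in the cortex, and their subunit mix sets calcium entry and kinetics. NMDA receptors need glutamate, a co-agonist and depolarisation together to open, and they admit the calcium that starts many forms of synaptic plasticity. Kainate receptors act on both sides of the synapse, metabotropic receptors signal through G proteins, and transmembrane auxiliary subunits such as the TARPs (the Cacng genes), the cornichons and the Neto proteins govern the trafficking and gating of the ion channels.

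Sequencing gave between 22.02 M and 65.19 M reads assigned to genes per library, and between 31.4 M and 43.77 M in vehicles. The labels place the libraries in 9 sequencing run codes, 3 of which (HI.3139, HI.3140 and HI.3254) held no vehicle. Neuron markers summed to 3640 to 6476 CPM in drug libraries and to 4463 to 6223 CPM in vehicles, and astrocyte markers to 5268 to 8558 CPM in drug libraries and to 5808 to 7563 CPM in vehicles. Microglia markers summed to 2.38 to 18.5 CPM in drug libraries and 3.40 to 21.5 CPM in vehicles, with 5 of 7 under 1 CPM in the median library, and endothelial markers never exceeded 4.72 CPM. CPM here are counts normalised to library size after scaling of library sizes by trimmed means.

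Levels were compared between genes only per length, as the RPKM values deposited by the authors. Among AMPA receptor subunits Gria1, which encodes GluA1, was highest in vehicles at 86.7 ± 6.2 RPKM (SD, n = 9), or 45.8% of the family's summed RPKM. Gria2, whose RNA-edited protein keeps AMPA receptors from passing calcium, followed at 57.1 ± 9.48 RPKM and 29.9% of the sum. Gria3 at 26.5 ± 4.1 RPKM and Gria4 at 19.7 ± 1.94 RPKM overlapped in their ranges over the 9 vehicles. The ratio of Gria1 to Gria2 was 1.21 (Sulfamethoxazole) to 2.47 (Formoterol) over the drug libraries and 1.152 to 2.03 over the vehicles.

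Grin1, the subunit that every NMDA receptor needs, led its family at 94.0 ± 14.7 RPKM in vehicles, or 64.5% of the family's summed RPKM. The glutamate-binding subunits came in the order Grin2b (29.3 ± 3.5 RPKM), Grin2a (9.39 ± 1.5), Grin2d (3.46 ± 0.273) and Grin2c (0.822 ± 0.287), with no overlap of vehicle ranges between neighbours. Grin3a, which encodes a glycine-binding subunit that lowers calcium permeability, stood at 8.42 ± 0.773 RPKM and overlapped Grin2a. The ratio of Grin2a to Grin2b, which is known to increase as cortex matures, was 0.228 (Fenofibrate) to 0.421 (Carvedilol) over the drug libraries (median 0.308) and 0.320 ± 0.0246 in the vehicles.

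Kainate receptor RNA was mostly that of Grik5, an obligate partner subunit, at 65.0 ± 3.49 RPKM in vehicles and 57.2% of the family's summed RPKM. Grik3 (21.1 ± 2.9 RPKM), Grik1 (13.6 ± 3.04) and Grik2 (11.2 ± 1.07) each overlapped the neighbour in this order, and Grik4, the other high-affinity partner subunit, was apart at 2.921 ± 0.382 RPKM. Of the metabotropic receptors the group I receptor gene Grm5 was highest at 35.4 ± 2.07 RPKM. The group II gene Grm3 (13.5 ± 3.2 RPKM) and the group III gene Grm7 (11.4 ± 3.48) overlapped, as did Grm7 and Grm4 (6.97 ± 1.06). Grm2 at 4.329 ± 0.582 RPKM and Grm8 at 3.001 ± 0.414 RPKM overlapped at the low end.

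Among AMPA auxiliary subunits the cornichon Cnih2 was far above the others at 146 ± 17.5 RPKM in vehicles, or 54.9% of the family's summed RPKM. Cacng8 (TARP γ-8) followed at 33.5 ± 4.6 RPKM, its lowest vehicle just under the highest of Cnih3 and Cacng3, and Cnih3 (21.6 ± 4.44), Cacng4 (20.6 ± 1.89), Cacng2 (stargazin, 19.8 ± 2.5) and Cacng3 (19.5 ± 6.03) were not separable by their vehicle ranges. Cacng5 was apart at 5.32 ± 1.32 RPKM. Neto1 and Neto2, which bind kainate receptors, were close at 27.1 ± 2.6 and 22.7 ± 2.02 RPKM with overlapping ranges, and Grid1 stood at 14.2 ± 0.990 RPKM. Summed by family, the vehicles held 190 ± 13.2 RPKM of AMPA subunits, 145 ± 18.6 of NMDA subunits, 114 ± 5.24 of kainate subunits and 74.6 ± 9.77 of metabotropic receptors, against 267 ± 34.9 of AMPA auxiliary subunits. The deposited lengths are those of the authors' gene models (1237 bases for Cnih2, 24788 for Grin2b), and RPKM depend on them.

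**Figure D1:**
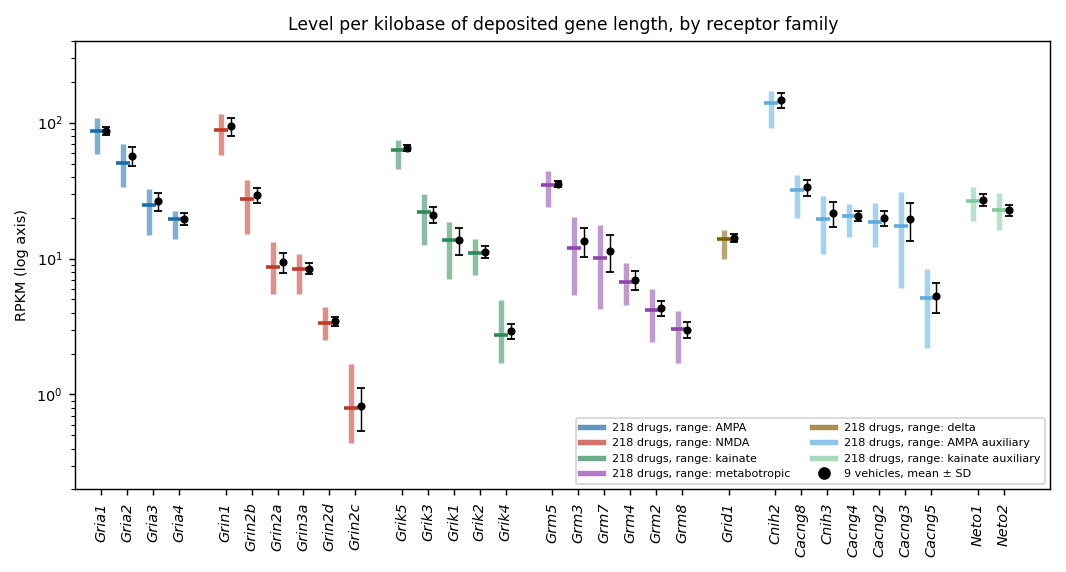
RPKM (log axis) of the 31 genes grouped by family and ordered by their vehicle mean. Coloured bars span the lowest to the highest of 218 drug libraries with a dash at the median, and black points give the mean ± SD of 9 vehicles; Cnih2, Grin1, Gria1 and Grik5 were the highest of their families and Grin2c the lowest gene at 0.822 RPKM.

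Within each gene the libraries were compared as CPM. For 27 of the 31 genes every vehicle lay inside the range of the drug libraries. The exceptions were Gria2, Gria3, Grin1 and Grik1, in each of which the highest vehicle exceeded all 218 drug libraries. The lowest libraries were shared out among few drugs. These ranges are not adjusted for run code, which is described below. Nilotinib, a kinase inhibitor, held the lowest value of 9 genes, Fenofibrate, a PPAR-alpha agonist, of 6, and Oxaprozin, an anti-inflammatory drug, of 6. The highest values were spread over 15 drugs, with 5 in PF-04995274-00.

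Of the AMPA subunits Gria1 was 335 (Fenofibrate) to 618 CPM (Pregabalin) with a median of 502 CPM over drugs, and 447, 494 and 560 CPM (lowest, median, highest) over vehicles. Gria2 was 353 (Leucovorin Calcium Pentahydrate) to 755 CPM (Voriconazole) with a median of 537 CPM over drugs, and 462, 600 and 778 CPM over vehicles. Gria3 was 78.1 (Nilotinib) to 181 CPM (Voriconazole) over drugs and 102 to 182 CPM over vehicles. Gria4 varied least of all 31 genes over drugs, 1.617-fold between 84.4 CPM (Fenofibrate) and 136 CPM (Voriconazole), with vehicles at 107 to 134 CPM.

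Of the NMDA subunits Grin1 was 246 (Oxaprozin) to 527 CPM (PF-04995274-00) over drugs and 326 to 531 CPM over vehicles. Grin2a was 79.6 (Oxaprozin) to 205 CPM (CP-448187) over drugs and 106 to 179 CPM over vehicles. Grin2b was 366 (Mitoxantrone·HCl) to 968 CPM (Nabumetone) over drugs and 607 to 910 CPM over vehicles. The Mitoxantrone·HCl library, from cultures given a DNA intercalator, lay well below all 9 vehicles for Grin2b. Grin2c, best known from cerebellum, had the widest range of the family, 3.78-fold over drugs between 2.196 CPM (Biperiden·HCl) and 8.30 CPM (Liothyronine·Na), with vehicles at 2.50 to 6.49 CPM. Grin2d was 13.4 (Nilotinib) to 24.4 CPM (Doxycycline Monohydrate) over drugs and 16.8 to 20.2 CPM over vehicles. Grin3a was 39.2 (Nilotinib) to 81.3 CPM (Quercetin) over drugs and 52.2 to 69.8 CPM over vehicles.

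The kainate subunits ranged over drugs by 1.72-fold (Grik5) to 2.90-fold (Grik4). Grik1, which is prominent in interneurons, was 22.04 (Fenofibrate) to 57.04 CPM (Dicyclomine·HCl) over drugs and 34.9 to 60.8 CPM over vehicles. Grik2 was 42.6 (Mitoxantrone·HCl) to 79.6 CPM (Quercetin) over drugs and 55.2 to 74.2 CPM over vehicles. Grik3 was 112 (Fenofibrate) to 278 CPM (Carvedilol) over drugs and 150 to 235 CPM over vehicles. Fenofibrate thus held the lowest library of Grik1 and Grik3 and the highest of Grik4, which was 10.1 (Quinidine·HCl·H2O) to 29.1 CPM over drugs and 13.3 to 21.0 CPM over vehicles. Grik5 was 166 (Nilotinib) to 286 CPM (Temazepam) over drugs and 224 to 278 CPM over vehicles.

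Among metabotropic receptors the presynaptic group III receptor gene Grm7 had the widest range, 4.35-fold over drugs between 18.1 CPM (Oxaprozin) and 78.7 CPM (CP-448187), with vehicles at 28.8, 44.3 and 77.0 CPM. Grm3, which in cortex is largely glial, ranged 3.83-fold over drugs between 16.4 CPM (Formoterol) and 62.7 CPM (Ethosuximide), with vehicles at 26.0, 40.9 and 55.6 CPM. Grm5 was 87.0 (Formoterol) to 168 CPM (Temazepam) over drugs and 112 to 139 CPM over vehicles. The others are presynaptic receptors of groups II and III. Grm2 was 10.9 (Nilotinib) to 28.8 CPM (Doxycycline Monohydrate) over drugs and 15.2 to 23.9 CPM over vehicles, Grm4 was 21.9 (Allopurinol) to 47.7 CPM (Carvedilol) over drugs and 25.6 to 44.9 CPM over vehicles, and Grm8 was 6.44 (Fenofibrate) to 16.2 CPM (CP-448187) over drugs and 9.30 to 14.3 CPM over vehicles. The delta receptor gene Grid1, a synaptic organiser, was 58.7 (Oxaprozin) to 97.8 CPM (Temazepam) over drugs and 74.2 to 95.1 CPM over vehicles.

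The widest range of all 31 genes was that of Cacng3 (TARP γ-3), 5.263-fold over drugs between 16.8 CPM (Leucovorin Calcium Pentahydrate) and 88.7 CPM (Doxycycline Monohydrate) with a median of 48.0 CPM, and 31.5, 52.2 and 80.9 CPM over vehicles. Cacng5 (TARP γ-5) followed Grm7 at 4.03-fold, 8.42 (Formoterol) to 33.9 CPM (PF-04995274-00) over drugs and 13.1, 19.1 and 27.9 CPM over vehicles. The other TARP genes were steadier. Cacng2 was 65.0 (Nilotinib) to 148 CPM (PF-04995274-00) over drugs and 92.4 to 137 CPM over vehicles, Cacng4 was 49.7 (Oxaprozin) to 89.0 CPM (PF-04995274-00) over drugs and 61.1 to 84.5 CPM over vehicles, and Cacng8 was 35.8 (Nilotinib) to 80.5 CPM (PF-04995274-00) over drugs and 49.8 to 80.1 CPM over vehicles. The cornichon Cnih2 was 106 (Nilotinib) to 216 CPM (Luteolin) over drugs and 148 to 211 CPM over vehicles, and Cnih3 was 28.6 (Oxaprozin) to 81.9 CPM (Luteolin) over drugs and 39.7 to 78.0 CPM over vehicles. Neto1 was 64.6 (Nilotinib) to 119 CPM (Pregabalin) over drugs and 75.7 to 107 CPM over vehicles, and Neto2 was 90.5 (Fenofibrate) to 165 CPM (Levothyroxine·Na) over drugs and 113 to 148 CPM over vehicles.

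As a group the glutamate receptor genes varied somewhat more than other genes. The SD of log2 CPM over drug libraries had a median of 0.22 over the 31 genes, against 0.19 over all 15474 genes tested and 0.14 over the 11143 genes with a mean of 5 CPM or more. Over the 9 vehicles the median SD was 0.22 for the 31 genes and 0.18 for all genes, so the untreated libraries varied about as much as the treated ones. Run code took a median of 34.1% of the variance of the 31 genes and 23.9% of that of all genes. In an edgeR quasi-likelihood test over run codes of the drug libraries all 31 passed a Benjamini-Hochberg adjusted p under 0.05, where 91.3% of all genes did. Drugs were not shared between run codes, so run code and the set of drugs in it cannot be told apart.

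The run code medians moved together for most of the genes. The lowest of the 9 medians was in run code HI.3145 for 20 of the 31 genes, and the highest in run code HI.3140 for 13 and in HI.3254 for 7. Cacng3 had the widest separation, with medians of 26.2 CPM in run code HI.3145 and 65.4 CPM in HI.3254. Grik1 and Neto2 ran the other way. Grik1 had its highest median, 47.0 CPM, in run code HI.3145, and Neto2 had medians of 137 CPM in HI.3145 and 122 CPM in HI.3254. Median activity scores, defined below, were -1.27 in run code HI.3145 and 0.69 in HI.3254.

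To ask which drugs shifted these genes, the library of each drug was set against all vehicles in an edgeR quasi-likelihood test over all genes. Of 6758 gene-drug pairs 17 passed an adjusted p under 0.05, 16 lower and 1 higher than vehicle, where 0.12% of all gene-drug pairs of the whole table passed. They came from 2 drugs, Nilotinib and Fenofibrate, and the comparisons share the 9 vehicles. With DESeq2 in place of edgeR, 10 drugs had a receptor gene past the threshold. The share of all genes that DESeq2 called in them is not given here, so the 10 are not read as particular to the receptor genes. When each vehicle was tested against the other 8, none of the 31 genes and no other gene passed.

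Nilotinib, which inhibits the ABL, KIT and PDGF receptor kinases, came with lower levels of 11 of the 31 genes (35.5%) and higher levels of none, where 12.2% of 15474 genes passed 6.02% lower and 6.2% higher. The 11 came from every family. They were Gria3, Grin2d, Grin3a, Grik5, Grm2, Grm5, Grid1, Cacng2, Cacng8, Cnih2 and Neto1. Gria3 was 78.1 CPM with Nilotinib against 102 to 182 CPM in vehicles (log2 fold change -0.90 ± 0.26 SE, edgeR adjusted p = 0.0481). Grin3a was 39.2 CPM against 52.2 to 69.8 CPM (-0.70 ± 0.14, edgeR adjusted p = 0.0124). Grik5 was 166 CPM against 224 to 278 CPM (-0.60 ± 0.13, edgeR adjusted p = 0.0163). All 3 lay below every vehicle. The hippocampal and cortical TARP gene Cacng8 was 35.8 CPM against 49.8 to 80.1 CPM (-0.85 ± 0.24, edgeR adjusted p = 0.0457), and Cnih2 was 106 CPM against 148 to 211 CPM (-0.78 ± 0.22, edgeR adjusted p = 0.0410).

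The other 6 genes fell by 0.47 (Grid1) to 0.92 (Grm2) on the log2 scale with Nilotinib, and 24 of the 31 lay below all 9 vehicles. The share of all genes below all 9 vehicles is not given here, so the 24 are not read as particular to the receptor genes. The median log2 fold change of the 31 genes was -0.60, and that of all genes tested was -0.01. In the same library neuron markers summed to 3640 CPM against 4463 to 6223 CPM in vehicles, with 3 of 8 lower and none higher in the test. Excitatory neuron markers summed to 963 CPM against 1362 to 2659 CPM (2 of 8 lower), oligodendrocyte precursor markers to 226 CPM against 473 to 555 CPM (3 of 5 lower), and astrocyte markers to 6503 CPM, within the vehicle range. The activity score defined below was 0.92 with Nilotinib and -1.17 to 1.215 in vehicles. No marker of these lists was at 0, and the part of these markers in the falls was not tested. Leaving out 1 vehicle changed the number of calls over all genes, fewest without vehicle 5, and with it the number of receptor genes called. It was 4 without vehicle 5, 6, 7 or 9, 5 without vehicle 4, 8 without vehicle 8 and 14 without vehicle 2. Grin2d, Grin3a, Grik5 and Grm5 passed whichever vehicle was left out. Without a filter on low counts 5 of the 31 passed, and the share of all genes called there is not given here.

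Genes of the scaffold and partner lists fell too in the Nilotinib library. Of 28 postsynaptic scaffold and signalling genes 5 fell and none rose, with a median log2 fold change of -0.67. They included Akap5, the anchor of protein kinase A at the synapse (-1.06 ± 0.17, edgeR adjusted p = 0.00404), and Dlg3, a synaptic scaffold (-0.90 ± 0.19, adjusted p = 0.0161), besides Nsf, Shank1 and Camk2a. Of 12 further AMPA receptor partners 5 fell, among them Frrs1l, which assists AMPA receptor assembly (-0.87 ± 0.16, edgeR adjusted p = 0.00834), with Olfm2, Olfm3, Gsg1l and Shisa7. Of 12 genes of glutamate transport and metabolism none fell and Slc38a2, a glutamine transporter, rose.

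With Fenofibrate 5 of the 31 genes fell and 1 rose (19.4% together), where 10.6% of 15525 genes passed, 4.78% lower and 5.82% higher. Gria1 was 335 CPM with Fenofibrate against 447 to 560 CPM in vehicles (log2 fold change -0.60 ± 0.12, edgeR adjusted p = 0.0106). Grm8 was 6.44 CPM against 9.30 to 14.3 CPM (-0.86 ± 0.22, edgeR adjusted p = 0.0307). Gria4 (-0.53 ± 0.13), Grin2d (-0.48 ± 0.12) and Neto2 (-0.50 ± 0.12) fell as well, and all 5 lay below every vehicle. Grik4 went the other way, at 29.1 CPM against 13.3 to 21.0 CPM in vehicles (0.73 ± 0.19, edgeR adjusted p = 0.0360), above every vehicle and every other drug.

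The median log2 fold change of the 31 genes with Fenofibrate was -0.31. Inhibitory neuron markers summed to 1015 CPM, the lowest of all drug libraries, against 1504 to 2258 CPM in vehicles, and 2 of 8 (Gad2 and Slc32a1) fell. Neuron markers summed to 4094 CPM, below the vehicles, with 2 of 8 lower, and astrocyte markers to 8279 CPM, above the vehicle maximum of 7563 CPM, with 1 higher and 1 lower of 8. The part of these markers in the falls was not tested. Of the partners the AMPA receptor-binding olfactomedin Olfm3 fell most (-1.14 ± 0.13, edgeR adjusted p = 0.000536), and 2 of 28 scaffold genes fell, Grip1 (-0.46 ± 0.10, adjusted p = 0.0161) and Lrrtm2 (-0.71 ± 0.16, adjusted p = 0.0211). The number of receptor genes called was lowest without vehicle 5 and highest without vehicle 3, as was the number of calls over all genes. The rise of Grik4 missed the threshold without vehicle 1, 5 or 9 (adjusted p = 0.0506, 0.0627 and 0.0588), and Gria1, Grin2d, Grm8 and Neto2 passed whichever vehicle was left out.

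The vehicles came from only 6 of the run codes, so each library was also compared with the rest of its own run code, with limma on voom values over all libraries. Of the 6758 gene-drug pairs 52 passed, 50 lower and 2 higher than the rest of the run, where 0.512% of all pairs passed. They came from 6 drugs and touched 29 of the 31 genes. Tested the same way, the 9 vehicles gave no call among the 31 genes. Drugs of 1 run code share the other libraries of that run as their comparison.

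Fenofibrate had 15 calls in this comparison, 13 lower and 2 higher, where 28.8% of 15474 genes passed, 14.5% lower and 14.3% higher. Besides the genes called against vehicle they included the kainate subunits Grik1 (22.04 CPM against 34.9 to 56.9 CPM in the other 31 libraries of its run, -1.03 ± 0.13, limma adjusted p = 5.09e-11), Grik2 (-0.55 ± 0.12) and Grik3 (-0.87 ± 0.20), and Grin3a, Grm2, Grid1, Cacng2 and Neto1. Grin2c was 6.79 CPM against 2.59 to 5.07 CPM in the run (0.95 ± 0.30, limma adjusted p = 0.00951) and joined Grik4 (0.80 ± 0.20) as the 2 receptor genes above the run. Of 8 inhibitory neuron markers 7 were lower in the same comparison. The neuron markers Syt1, Tubb3 and Map2 and the excitatory neuron markers Neurod6, Tbr1 and Bcl11b were lower too. Of the astrocyte markers Aldh1l1, Slc1a2 and Slc1a3 were higher and Sox9 lower, and the oligodendrocyte precursor marker Olig2 was higher. The part of these markers in the receptor calls was not tested. Nilotinib had 11 calls, all lower, where 22.4% of genes passed, 11.4% lower and 11.0% higher. Grin2d and Cacng2 were no longer among them (limma adjusted p = 0.0838 and 0.0549), and Gria1 (-0.31 ± 0.097) and Grik3 (-0.67 ± 0.21) were.

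Ursodiol, a bile acid, had 13 calls, all lower, where 15.2% of genes passed, 8.48% lower and 6.73% higher. They included Grin1 at 274 CPM against 318 to 499 CPM in the other 31 libraries of its run (-0.60 ± 0.19, limma adjusted p = 0.0351), Gria2 at 377 CPM against 420 to 778 CPM (-0.68 ± 0.20, limma adjusted p = 0.0346) and Grm4 at 23.0 CPM against 29.3 to 43.0 CPM (-0.63 ± 0.17, limma adjusted p = 0.0337). The others were Gria3, Grin2a, Grin2d, Grm3, Grid1, Cacng2, Cacng8, Cnih2, Cnih3 and Neto1. Ursodiol lay below all others of its run in 22 of the 31 genes. The share of all genes in which it did so is not given here, so the 22 are not read as particular to the receptor genes. Naloxone·HCl, an opioid receptor antagonist, had 6 calls, all lower, where 7.97% of genes passed, 4.7% lower and 3.3% higher. Cacng3 was 22.5 CPM against 30.7 to 86.7 CPM in its run (-1.295 ± 0.39, limma adjusted p = 0.0480), and Gria3, Grin1, Grin2a, Grm7 and Cnih3 were also lower. None of these 6 passed without voom weights.

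In both libraries the marker lists were shifted. Neuron markers summed to 4041 CPM with Ursodiol and 4155 CPM with Naloxone·HCl, against 4463 to 6223 CPM in vehicles, and astrocyte markers to 8558 and 8322 CPM, against 5808 to 7563 CPM in vehicles. With Ursodiol 6 of 8 neuron markers were lower and 4 of 8 astrocyte markers higher than in the run, and with Naloxone·HCl 3 of 8 were lower and 2 of 8 higher. Of 28 scaffold genes 14 were lower with Ursodiol and 13 with Naloxone·HCl. Activity scores were -1.004 with Ursodiol and -1.37 with Naloxone·HCl, the second below all vehicles. The part of the markers and the score in these results was not tested. Against the 9 vehicles neither drug had a receptor gene past the threshold in edgeR. The median log2 fold change of the 31 genes was -0.45 with Ursodiol and -0.40 with Naloxone·HCl.

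In another run Ciprofibrate, like Fenofibrate an agonist of PPAR-alpha, had 4 calls, all lower, where 4.3% of genes passed, 2.2% lower and 2.1% higher. They were Gria4 (94.7 CPM against 110 to 123 CPM in the other 15 libraries of its run), Grin3a (47.6 against 57.4 to 75.2 CPM), Grik2 (47.6 against 58.6 to 75.0 CPM) and Grm8 (6.91 against 8.43 to 16.2 CPM). Each lay below the whole run, by -0.30 ± 0.093 for Gria4 (limma adjusted p = 0.0369) to -0.69 ± 0.20 for Grm8 (0.0283). All 4 were also lower with Fenofibrate in its own run, where 13 receptor genes and 14.5% of all genes were lower. Whether this overlap exceeds that among all genes was not tested. The other fibrates, Clofibrate and Bezafibrate in the run of Ciprofibrate and Gemfibrozil in a different run, had no receptor gene past the threshold against their run. No neuron or astrocyte marker passed with Ciprofibrate in that comparison. Mitoxantrone·HCl, described although it came sixth in number of calls, had 3, all lower, where 1.7% of genes passed, 1.07% lower and 0.627% higher. Grin2b was 366 CPM against 606 to 798 CPM in the other 7 libraries of its run (-0.85 ± 0.19, limma adjusted p = 0.00172), and Gria1 (-0.34 ± 0.10) and Grik2 (-0.50 ± 0.13) were lower as well. Its oligodendrocyte precursor markers summed to 285 CPM against 473 to 555 CPM in vehicles, and its astrocyte markers to 5268 CPM against 5808 to 7563 CPM. The run codes of these 2 drugs held no vehicle. Gria1, Gria3, Grin3a, Grik2, Grid1 and Neto1 were each lower with 3 of the 6 drugs, the most for any of the genes.

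**Figure D2:**
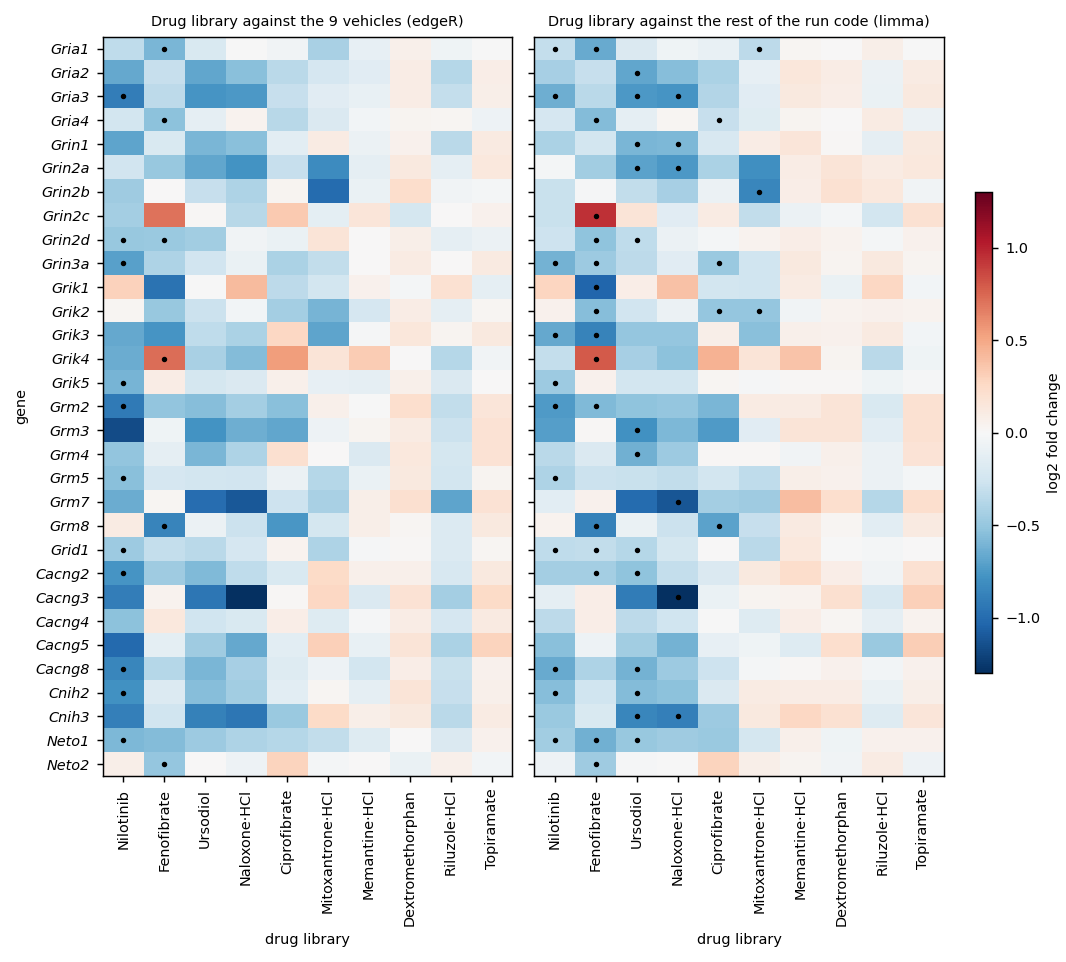
Log2 fold changes of the 31 genes in 10 drug libraries, against the 9 vehicles (left) and against the rest of the run code (right), with dots at adjusted p under 0.05. Falls dominate in Nilotinib, Fenofibrate, Ursodiol and Naloxone·HCl, Grik4 and Grin2c stand out as higher with Fenofibrate, and the 4 drugs with glutamatergic targets at the right of each panel have no dots.

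Another 4 drugs are known to act on glutamate signalling itself. Memantine·HCl and Dextromethorphan block the NMDA receptor channel, Riluzole·HCl lowers glutamate release, and Topiramate among other actions inhibits AMPA and kainate receptors. None of the 31 genes passed in any of them by edgeR against vehicle, by limma against the run code, or at an unadjusted p under 0.05 in edgeR, and no gene of the whole table passed the edgeR test (0.0%). The share of all genes at an unadjusted p under 0.05 was 1.1% with Memantine·HCl, 0.934% with Dextromethorphan, 1.82% with Riluzole·HCl and 0.65% with Topiramate. With Memantine·HCl Grin1 was 391.9 CPM, Grin2a 130 CPM and Grin2b 682 CPM. With Dextromethorphan they were 428, 154 and 848 CPM, against 326 to 531, 106 to 179 and 607 to 910 CPM in vehicles. All 31 genes lay within the vehicle range with Dextromethorphan and Topiramate, and 30 with Memantine·HCl, where Grik4 was 21.9 CPM against a vehicle maximum of 21.0 CPM.

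Riluzole·HCl lay just below the vehicles in 4 genes, Grin1 (324 CPM), Grik5 (220 CPM), Grm5 (109 CPM) and Cnih2 (148.3 CPM against a vehicle minimum of 148.5 CPM). Tested together against the 9 vehicles, Memantine·HCl and Dextromethorphan gave log2 differences between -0.03 ± 0.33 (Grin2c) and 0.08 ± 0.14 (Grin2b) over the NMDA subunits, with 0 of 31 genes and 0 of 15144 genes past the threshold in edgeR. DESeq2 called 0 of the 31 too, and 159 genes of the table (1.05%) but none of the 31 had an unadjusted edgeR p under 0.05. The standard errors bound what could be seen. For Grin1 it was 0.18 and for Grin2a 0.18 on the log2 scale.

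Drugs that share a pharmacological class were then taken as replicates of that class and set against the vehicles in edgeR. With the 2 thyroid hormones, Levothyroxine·Na and Liothyronine·Na, 1 of the 31 genes fell, where 1.3% of 15059 genes passed. Grin3a was 47.1 and 45.0 CPM with the hormones against 52.2 to 69.8 CPM in vehicles (-0.46 ± 0.098, edgeR adjusted p = 0.0438). The groups did not overlap. Neto2 and Grin2c were apart from the vehicles on the high side without passing. Neto2 was 165 and 161 CPM against 113 to 148 CPM (0.35 ± 0.079, edgeR adjusted p = 0.0619), and Grin2c was 7.91 and 8.30 CPM against 2.50 to 6.49 CPM (0.96 ± 0.30, adjusted p = 0.137). Another 5 genes lay below all vehicles, also without passing in edgeR. The share of all genes lying outside the vehicle range with both hormones is not given here. Cacng3 was 27.4 and 26.2 CPM with the hormones against 31.5 to 80.9 CPM in vehicles (-1.04 ± 0.35, edgeR adjusted p = 0.157), and Grm3 was 23.4 and 21.0 CPM against 26.0 to 55.6 CPM (-0.91 ± 0.27, adjusted p = 0.123). Cnih3 was 39.1 and 34.4 CPM with the hormones against 39.7 to 78.0 CPM in vehicles (-0.70 ± 0.23, edgeR adjusted p = 0.154). The others were Grm8 (7.59 to 8.15 CPM) and Cacng5 (12.4 to 12.6 CPM). At an unadjusted p under 0.05 there were 14 of the 31, and 21.2% of all genes. The Grin3a call was lost without either hormone (0 calls), without vehicle 4, 5, 6, 7, 8 or 9, and with no filter on low counts.

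Both hormone libraries came from run code HI.3145, the run with the lowest medians of most receptor genes and a single vehicle. In a limma fit over all libraries with terms for run code, where 2.1% of genes passed, Grin3a missed the threshold (-0.29 ± 0.10, limma adjusted p = 0.129). There 3 other genes were higher with the hormones, Grin2c (1.08 ± 0.23, limma adjusted p = 0.000631), Cacng4 (0.44 ± 0.099, adjusted p = 0.00123) and Neto2 (0.27 ± 0.082, adjusted p = 0.0463). Cacng3 (-0.059 ± 0.33), Grm3 (-0.21 ± 0.24) and Cnih3 (-0.16 ± 0.22) were all at a limma adjusted p of 0.999. Cacng4 was 82.9 and 82.3 CPM with the hormones, inside the vehicle range of 61.1 to 84.5 CPM but above the run's drug median of 61.4 CPM. DESeq2 called 7 of the 31 against vehicle, with Neto2 higher and Grin3a, Grm3, Grm8, Cacng3, Cnih3 and Neto1 lower, where it called 6.59% of genes. Astrocyte markers summed to 7451 and 7929 CPM with the hormones against 5808 to 7563 CPM in vehicles, and oligodendrocyte precursor markers to 418 and 382 CPM against 473 to 555 CPM. Neuron markers summed to 4720 and 4347 CPM with the hormones against 4463 to 6223 CPM in vehicles, and excitatory neuron markers to 1483 and 1313 CPM against 1362 to 2659 CPM. A score of neuronal activity, the mean log2 CPM of activity-regulated genes with 0 at the vehicle mean, was -1.36 and -1.42 with the hormones against -1.17 to 1.215 in vehicles. The part of these markers and of the score in the result was not tested.

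The 5 benzodiazepines (Clonazepam, Lorazepam, Oxazepam, Temazepam and Triazolam), which enhance GABA-A receptor currents, had no receptor gene past the threshold in edgeR, where 3.86% of 14735 genes passed, and 8 of the 31 had an unadjusted p under 0.05, as 20.3% of all genes did. Cacng5 and Grm8 came closest. Cacng5 was 8.56 to 16.2 CPM with benzodiazepines, median 11.9, against 13.1 to 27.9 CPM in vehicles (-0.75 ± 0.20, edgeR adjusted p = 0.0519). Grm8 was 8.62 to 9.95 CPM with benzodiazepines against 9.30 to 14.3 CPM in vehicles (-0.36 ± 0.095, edgeR adjusted p = 0.0514). The ranges overlapped in both. The same activity score was -1.82 to -1.36 with benzodiazepines, lowest with Clonazepam, and so below the -1.17 to 1.215 of the vehicles in all 5 libraries, and its part in these values was not tested. Cacng5 and Grm8 passed in DESeq2 and in limma with run code terms (Cacng5 -0.64 ± 0.15, limma adjusted p = 0.000971; Grm8 -0.36 ± 0.094, adjusted p = 0.00404), as did Grm2 (adjusted p = 0.0398 in DESeq2 and 0.0461 in limma). These 2 fits called 7.98% and 11.5% of all genes. In the limma fit, here and for the other classes, the reference is the other libraries of each run code, mostly other drugs rather than vehicles.

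The 5 L-type calcium channel blockers called 0 of the 31 genes and 0 of 14786 genes in edgeR, with 3 of the 31 (Grin2a, Cacng2 and Cnih3) and 7.85% of all genes at an unadjusted p under 0.05, and DESeq2 and limma with run code terms also called none of the 31. The 3 glucocorticoids called 0 of the 31, where 0.0134% of 14923 genes passed. Neto2, alone of the 31, had an unadjusted p under 0.05, as 3.51% of all genes did, at 107 to 116 CPM with glucocorticoids against 113 to 148 CPM in vehicles (-0.19 ± 0.070, edgeR adjusted p = 1.00), and DESeq2 and limma with run code terms called none of the 31 either. All classes share the same 9 vehicles.

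Each gene was then set against a score of neuronal activity. The score was the mean log2 CPM of 28 activity-regulated genes such as Fos, Arc, Npas4 and Bdnf, none of which is a receptor gene of the list, with 0 at the vehicle mean. It was -1.82 (Clonazepam) to 1.67 (CE-326597) over drugs and -1.17 to 1.215 over vehicles. In an edgeR fit over all libraries with terms for run code, 20 of the 31 genes (64.5%) had a positive slope past the threshold and 4 (12.9%) a negative one, where 37.6% of 15474 genes had a positive and 41.2% a negative slope (78.8% together). A slope of 0.42 means 0.42 log2 units of the gene for each log2 unit of the score.

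The families differed in this respect. All 7 AMPA auxiliary subunits had positive slopes past the threshold, from 0.11 ± 0.016 (Cnih2) to 0.42 ± 0.029 for Cacng3 (edgeR adjusted p = 1.63e-32). Cacng5 had 0.39 ± 0.020 (adjusted p = 3.62e-47) and Cnih3 0.30 ± 0.021 (adjusted p = 3.80e-33). Of the 6 metabotropic receptors 5 were positive, led by Grm7 (0.38 ± 0.027) and Grm3 (0.26 ± 0.023), and Grm5 missed the threshold (0.03 ± 0.014, edgeR adjusted p = 0.0995). The slopes of Cacng3, Cacng5, Grm7, Cnih3 and Grm3 were positive within each of the 9 run codes.

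The ionotropic subunits were split within families. Gria2 (0.15 ± 0.017) and Gria3 (0.19 ± 0.019) had positive slopes and Gria1 (-0.03 ± 0.0092, edgeR adjusted p = 0.000675) and Gria4 (-0.02 ± 0.0089, adjusted p = 0.0219) negative ones. The Gria1 slope was negative in 8 of 9 run codes. That of Gria4 was negative in 4 of 9 and missed the threshold under 4 alternatives, for example at an adjusted p of 0.0732 with the 218 drug libraries alone. Grin1 (0.18 ± 0.014) and Grin2a (0.18 ± 0.020) were positive, while Grin2b, Grin2c, Grin2d and Grin3a did not pass, with slopes between -0.00 and 0.03. Of the kainate genes Grik4 (0.13 ± 0.020) and Grik5 (0.03 ± 0.0089) were positive and Grik1 negative (-0.08 ± 0.014, edgeR adjusted p = 1.93e-07). Neto1 was positive (0.07 ± 0.016) and Neto2 negative (-0.04 ± 0.011), and Grid1 was positive (0.05 ± 0.011). Of the 20 positive slopes 15 were positive in all 9 run codes.

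**Figure D3:**
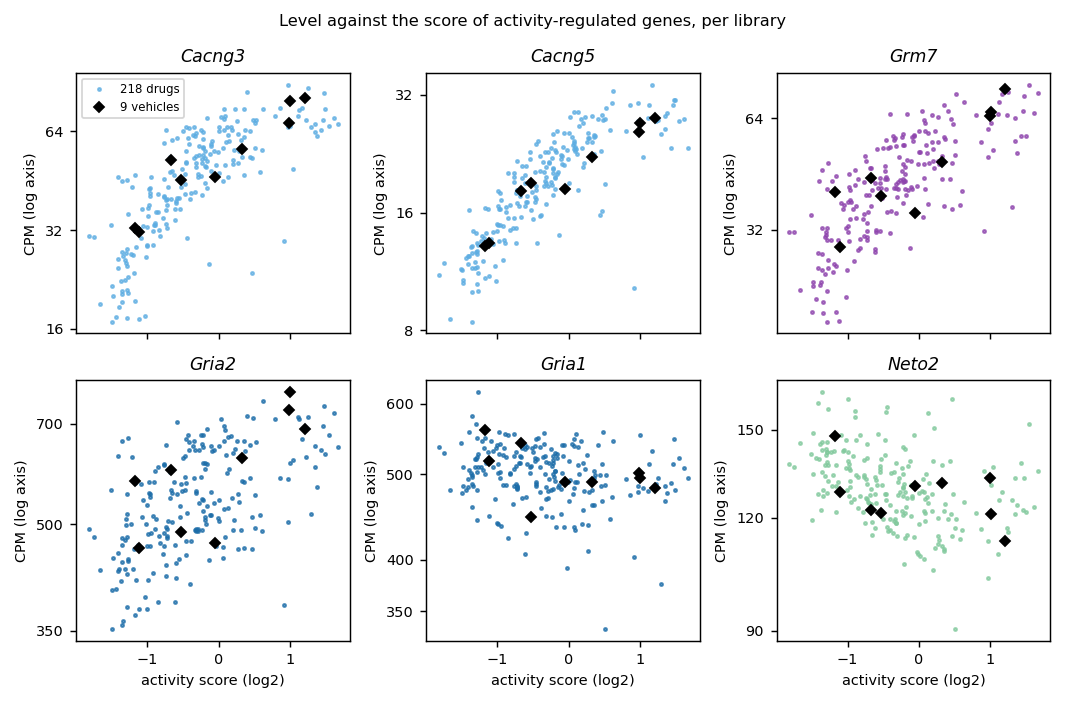
CPM (log axis) of Cacng3, Cacng5, Grm7, Gria2, Gria1 and Neto2 against the activity score in log2 units, for 218 drug libraries (coloured points) and 9 vehicles (black diamonds). Cacng3, Cacng5 and Grm7 climb over the whole range of the score in drugs and vehicles alike, Gria2 climbs with a wide scatter, and Gria1 and Neto2 drift slightly down.

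Cell type markers moved with the score as well. All 8 neuron markers had positive slopes past the threshold, 5 of 8 excitatory neuron markers were positive and none negative, 6 of 8 inhibitory neuron markers were negative and none positive, and 6 of 8 astrocyte markers were negative and 1 positive. When the mean levels of the neuron and the astrocyte markers were added to the fit, a choice made after the data were seen, 10 of the 31 slopes were positive and 16 negative past the threshold, where 67.8% of 15555 genes passed (32.8% positive and 35.0% negative). Of the 20 genes positive before, 9 stayed positive (Grin1, Grik4, Grm3, Grm7, Cacng2, Cacng3, Cacng4, Cacng5 and Cnih3), 6 became negative past the threshold (Gria2, Grik5, Grid1, Cacng8, Cnih2 and Neto1) and 5 no longer passed. Cacng5 kept 0.31 ± 0.024, Cacng3 0.23 ± 0.029 and Grm7 0.15 ± 0.019, while Gria2 had -0.03 ± 0.0084. The 4 negative slopes stayed negative. Grin2c, not past the threshold before, had 0.14 ± 0.036.

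With all 7 sets of marker levels in the fit, also added later, 8 slopes were positive and 13 negative. Of 15807 genes 53.1% passed, 24.8% positive and 28.3% negative. The receptor genes thus had positive slopes about as often as all genes, and negative ones more often. The 8 positive ones were Grin1, Grm7, Grm8, Cacng2, Cacng3, Cacng4, Cacng5 and Cnih3, which include 5 of the 7 AMPA auxiliary subunits. Whether marker levels stand for the number of cells or for expression per cell was not tested.

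**Figure D4:**
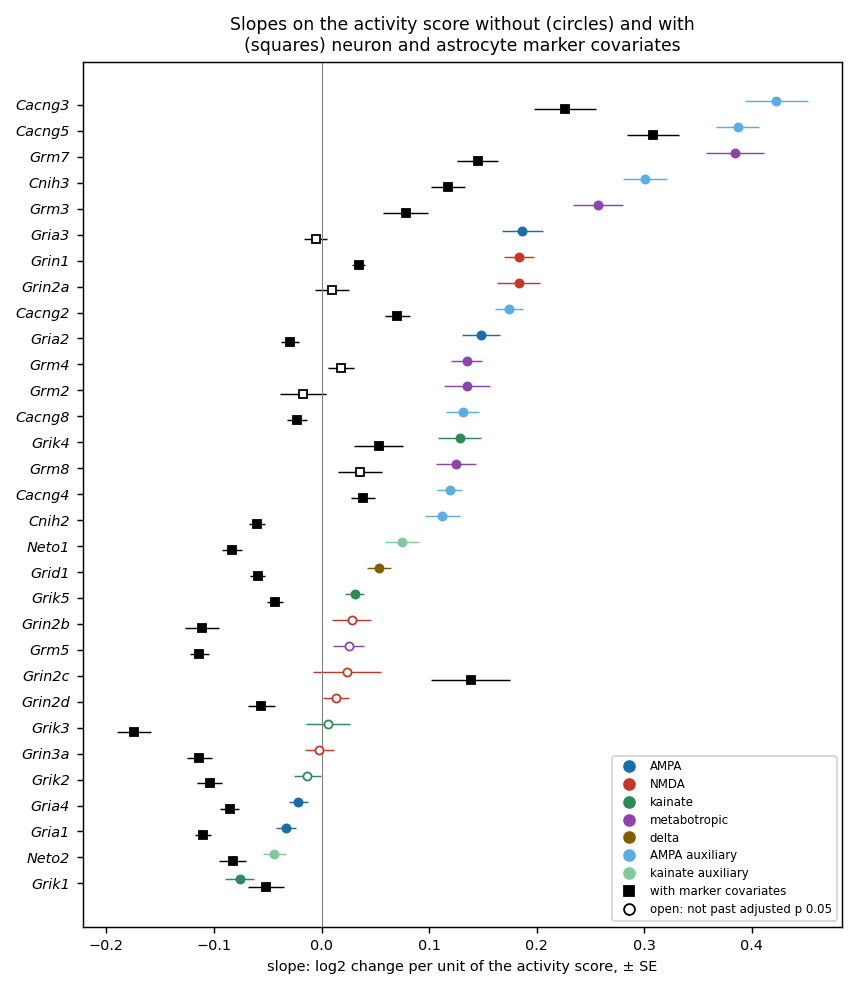
Slope of each gene on the activity score ± SE over all libraries, without marker covariates (coloured circles) and with the neuron and astrocyte marker levels in the fit (black squares), with open symbols where adjusted p was not under 0.05. Cacng3, Cacng5, Grm7, Cnih3 and Grm3 stay to the right of 0 in both fits, and Gria2, Grik5, Grid1, Cacng8, Cnih2 and Neto1 cross to the left.

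The partner lists can be set beside the receptors in the fit without marker levels. There 37.6% of 15474 genes had a positive and 41.2% a negative slope. Slopes of the partner genes with marker levels in the fit are not given here. Of 28 postsynaptic scaffold and signalling genes 25 had positive slopes and 1, Homer3, a negative one (-0.31 ± 0.029), with a median of 0.16. Homer1 and Nptx2 of that list are also part of the score, and without them 23 of 26 were positive. Dlg1 (0.20 ± 0.0078), Dlgap2 (0.33 ± 0.016) and Dlgap4 (0.16 ± 0.010) had the smallest p-values of the rest. Of 12 further AMPA receptor partners 9 were positive, with Porcn (0.14 ± 0.013) and Olfm1 (0.18 ± 0.017) at the smallest p-values, and 1, Shisa9, was negative. Glutamate transport and metabolism was split, with 5 of 12 positive, among them the neuronal transporter gene Slc1a1 (0.18 ± 0.013) and the vesicular transporter genes Slc17a6 (0.17 ± 0.013) and Slc17a7 (0.31 ± 0.030), and 7 negative, among them the glutamine transporter gene Slc38a1 (-0.16 ± 0.015).

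Promoters were read from RefSeq on GRCm38.p6, as the 250 bases before and 50 after the gene start, and 20 of the 31 genes had an entry. They were searched on both strands for 4 motifs bound by activity-regulated factors, the cAMP response element TGACGTCA, its shorter core TGACG, the EGR motif GCGNGGGCG and the AP-1 motif TGANTCA; the full element contains the core. Of 32851 RefSeq promoters searched 1.79% held the full element, 20.8% the core, 5.55% the EGR motif and 7.81% the AP-1 motif. Of the 20 receptor promoters 0, 2, 3 and 2 held them in that order. Among the genes with large slopes Cacng5 had 1 AP-1 match and Grm3 1 EGR match. Cacng3, which had the largest slope, Grm7 and Cnih3 had 0 matches to any of the 4. Grin1 had 2 core matches and 1 EGR match, the most of any. The promoters of Cacng5, Grm3 and Grin1 follow as examples that hold a match, with matches in capitals. Promoters without a match, such as those of Cacng3, Grm7 and Cnih3, are not printed.
Cacng5, chr11:107915006-107915305, minus strand, the first of 2 listed: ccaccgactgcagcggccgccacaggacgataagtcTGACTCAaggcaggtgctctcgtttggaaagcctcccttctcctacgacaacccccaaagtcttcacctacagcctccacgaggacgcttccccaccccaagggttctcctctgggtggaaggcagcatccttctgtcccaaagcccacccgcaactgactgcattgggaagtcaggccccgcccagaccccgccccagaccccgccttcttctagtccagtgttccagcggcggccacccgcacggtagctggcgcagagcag
Grm3, chr5:9725303-9725602, minus strand: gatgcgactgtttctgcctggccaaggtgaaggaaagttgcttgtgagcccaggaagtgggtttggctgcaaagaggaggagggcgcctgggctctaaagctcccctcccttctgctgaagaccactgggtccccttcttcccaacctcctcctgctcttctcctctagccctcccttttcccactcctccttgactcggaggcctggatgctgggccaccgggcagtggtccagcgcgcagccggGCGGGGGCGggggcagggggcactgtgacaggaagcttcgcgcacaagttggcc
Grin1, chr2:25319138-25319437, minus strand: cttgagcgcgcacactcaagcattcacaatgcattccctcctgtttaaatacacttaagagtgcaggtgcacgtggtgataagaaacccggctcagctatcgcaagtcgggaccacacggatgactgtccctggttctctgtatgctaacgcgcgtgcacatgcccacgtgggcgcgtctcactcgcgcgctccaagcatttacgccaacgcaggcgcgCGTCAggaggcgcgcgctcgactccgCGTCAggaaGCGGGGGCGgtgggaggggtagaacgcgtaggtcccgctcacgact
A match is a run of letters in this window and was not tested as a binding site.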

How the data were processed

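Polyadenylated RNA of mouse cortical cultures was sequenced as 227 stranded libraries, per the labels' protocols. The authors deposited whole-number counts per gene and RPKM values. Per the submitters' processing notes reads were processed with edgeR 3.10.5, limma, Subread 1.4.6 and STAR 2.4.0 on build mm10, and the role of each is not given in the sources used here. The deposited RPKM equalled values computed from the deposited counts and gene lengths to within a relative 4.99e-06 where counts were above 20, so RPKM carry the same counting error.

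From the counts, edgeR 4.0.16 in R 4.3.3 gave TMM-scaled CPM and quasi-likelihood tests after filterByExpr, with Benjamini-Hochberg adjustment over all genes and a threshold of 0.05. Comparisons were each drug against 9 vehicles, drug classes against vehicles, and a slope on an activity score (mean log2 CPM of 28 genes, prior count 1) with run code terms. Each library was also set against the rest of its run code with limma 3.58.1 on voom values. With 1 library per drug, that library is assumed to vary like the vehicles. Alternatives were DESeq2 1.42.0, RLE factors, no filter, limma without weights, other scores and covariates, and leaving out libraries. The scripts were checked on simulated data.

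The receptor genes and lists were chosen with earlier results of these data known. All 31 receptor genes are named, with every one past a threshold. Drugs are named if a receptor gene passed against vehicle, if they were among the 5 libraries with most calls against the run, or if glutamate transmission is their known target. Up to 3 partner genes are named per comparison by smallest p, and any further name was chosen after its values were seen. Errors are SE for log2 fold changes and slopes and SD for levels. Depth was 22.02 M to 65.19 M counted reads per library.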

Additional observations from a re-analysis of the deposited data

Results flagged for a closer look

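Of 93 groups of 4 to 10 libraries examined for a value far from the rest, 2 had one, where chance gives about 1 in 20 groups. Among the vehicles Grik1 was 60.8 CPM in vehicle 2 and 34.9 to 47.1 CPM in the other 8. Among the benzodiazepines Grm8 was 9.95 CPM with Triazolam and 8.62 to 8.99 CPM with the other 4.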

How the results depend on the processing

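No paired analysis was possible because each drug has 1 library and the labels pair no drug library with a vehicle. The 17 receptor gene calls over all drugs against vehicle became 11 with no filter, 66 with DESeq2 and 52 against the rest of the run code with limma, and 8 to 22 with 1 vehicle left out. For Fenofibrate 6 calls became 11 with DESeq2, 15 with limma and 4 to 9 with 1 vehicle left out. For Nilotinib 11 became 5 with no filter, 19 with DESeq2 and 4 to 14 with 1 vehicle left out. The 6 Naloxone·HCl calls against its run became 0 without voom weights. The benzodiazepines had 0 calls, 3 with DESeq2, 3 with limma and run code terms, and 0 to 3 with 1 library left out. The thyroid hormones had 1, then 0 with no filter, 7 with DESeq2, 3 with limma and run code terms, and 0 to 2 with 1 library left out. With DESeq2 the calls of single drugs against vehicle came from 10 drugs. The shares of all genes called for single drugs with DESeq2 or with no filter are not given here. These counts are therefore not read as particular to the receptor genes. The cause of these changes was not tested.

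With neuron and astrocyte markers in the fit, slopes on the activity score changed sign for Gria2 (-0.029), Gria3 (-0.0057), Grik5 (-0.043), Grm2 (-0.017), Grid1 (-0.059), Cacng8 (-0.023), Cnih2 (-0.060) and Neto1 (-0.083). With all 7 marker sets they changed sign for Gria2 (-0.033), Gria3 (-0.0075), Grik1 (0.013), Grik4 (-0.0037), Grik5 (-0.065), Grid1 (-0.050), Cacng8 (-0.014), Cnih2 (-0.049) and Neto1 (-0.029). The 20 positive slopes kept their sign and passed in the other 7 alternatives. Each drug rests on 1 library, and no receptor gene had fewer than 65 reads in any library.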

Other observations

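Oxaprozin held the lowest library of 6 receptor genes without any gene past the threshold in edgeR, a library singled out after its values were seen. Those genes were Grin1, Grin2a, Grm7, Grid1, Cacng4 and Cnih3. In the Oxaprozin library neuron markers summed to 3697 CPM against 4463 to 6223 CPM in vehicles. Its excitatory neuron markers summed to 855 CPM against 1362 to 2659 CPM, and its astrocyte markers to 8168 CPM against 5808 to 7563 CPM. Their part in the low values was not tested.

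Several auxiliary subunit genes with positive slopes were low in the Nilotinib library for its activity score. Cacng2, Cacng8 and Cnih2 had their lowest drug library there, and 2 others are given here. At a score of 0.92 Cacng5 was 10.2 CPM, below the vehicle minimum of 13.1 CPM. Cacng3 was 29.7 CPM, below the vehicle minimum of 31.5 CPM. Vehicles with scores near 1 had the highest levels of both genes, but came from other run codes. The drug libraries of the Nilotinib run code, HI.3078, had medians of 13.6 CPM for Cacng5, 32.8 CPM for Cacng3 and -0.90 for the score.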
